A study of Bos taurus with 16 samples.

Results

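TLR4, CD14 and TLR2, the receptors through which macrophages sense lipopolysaccharide (LPS) and bacterial lipoproteins, were followed through 16 RNA sequencing libraries of bovine monocyte-derived macrophages (MDMs). These 3 genes of the 27607 in the count files were taken by their Ensembl identifiers, ENSBTAG00000006240 for TLR4, ENSBTAG00000015032 for CD14 and ENSBTAG00000008008 for TLR2. The files pair no identifier with a symbol, and the gene table at hand holds the 3 symbols but no Ensembl identifiers, so the pairing is the one that came with the identifiers and was not checked. Monocytes from the blood of young cattle of up to a year of age were cultured for 11 days into MDMs, which are macrophages grown outside the body. The MDMs of each animal were split into a culture in medium alone (unstimulated) and one with Escherichia coli LPS at 100 ng/ml for 48 hours. The 4 groups held 4 libraries each, from 4 Holstein animals (labelled taurine) and 4 Gir animals (labelled indicine), with 2 libraries from every animal. The animal numbers used here (Gir 2, 5, 6 and 7, and Holstein 1, 3, 20 and 50) are those of the labels, and so are the breeds. The labels and the study's account of its breed comparisons do not name the same breed as the higher one, for TLR4 after LPS and for all other genes that could be matched between them by identifier. Those others are only a part of the study's lists, which give many genes by symbol alone. Which of the 2 has the breeds right cannot be told from these counts. Holstein and Gir therefore stand for the libraries labelled so throughout, and if the labels were exchanged, every direction between the breeds given here would turn, while the sizes of the breed differences and the LPS effects over both breeds would stay.

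TLR4 is the signalling receptor for LPS, the glycolipid that covers the surface of gram-negative bacteria. CD14 is a membrane protein without a signalling domain of its own that receives LPS from the LPS-binding protein of serum and hands it to TLR4 and its partner MD-2. TLR2 pairs with TLR1 or TLR6 and senses bacterial lipoproteins, and CD14 assists it as well. Both toll-like receptors signal through the adaptor MyD88 to NF-kappa B and to the transcription of cytokines, and TLR4 also uses the adaptor TRIF. CD14 is in addition a classical surface marker of monocytes and macrophages.

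The libraries held from 7362247 to 10296054 counts on genes, and levels are given as counts per 1000000 of these (CPM), so that 1 CPM stood for 7.36 to 10.3 counts, and counting error was small for all 3 genes. TLR4 had between 820 and 2563 counts per library, CD14 between 9069 and 24120 and TLR2 between 3083 and 10610. All 3 passed the filter of at least 1 CPM in at least 4 libraries in every comparison. When the genes of a library were ranked by their counts, CD14 held a place between 35 and 84, TLR2 between 66 and 356 and TLR4 between 385 and 1595. These ranks are of counts, which also grow with transcript length, so they do not compare the number of transcripts between genes. CD14 was thus abundant in all 16 libraries, and it was the only macrophage marker that could be looked up. In bulk samples of this kind, fewer cells of a type and less RNA per cell cannot be told apart.

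TLR4 was the gene of the 3 with the fewest counts, and by the labels most Holstein animals had more of it than all Gir animals. In unstimulated MDMs of Gir, TLR4 had 110 CPM in animal 2, 121 in animal 5, 136 in animal 6 and 147 in animal 7, with a mean of 128 ± 16.3 (SD, n = 4). In unstimulated MDMs of Holstein it had 233 CPM in animal 1, 126 in animal 20, 237 in animal 3 and 224 in animal 50, with a mean of 205 ± 52.8 (SD, n = 4). Holstein animals 1, 3 and 50 stood above every Gir animal, whereas Holstein 20 lay among them, so the breeds overlapped through this animal. After LPS, the Gir animals 2, 5, 6 and 7 had 100, 132, 109 and 167 CPM of TLR4, a mean of 127 ± 30.0 (SD, n = 4). The Holstein animals 1, 20, 3 and 50 had 228, 147, 331 and 241 CPM after LPS, a mean of 237 ± 75.3 (SD, n = 4). The order was much the same as without LPS: Holstein 3 had the highest level under both conditions, and Holstein 20 again fell within the Gir range.

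CD14, the co-receptor, had the narrowest range of the 3 genes over the 16 libraries. In Gir, animals 2, 5, 6 and 7 had 1086, 1582, 1257 and 1096 CPM of CD14 without stimulation, a mean of 1255 ± 231 (SD, n = 4), and 1671, 1675, 1371 and 1328 CPM after LPS, a mean of 1511 ± 188 (SD, n = 4). In Holstein, animals 1, 20, 3 and 50 had 1734, 1303, 1298 and 1988 CPM without stimulation, a mean of 1581 ± 340 (SD, n = 4), and 1644, 1619, 2046 and 2343 CPM after LPS, a mean of 1913 ± 347 (SD, n = 4). The breeds overlapped for this gene under both conditions, and of all pairs of groups only unstimulated Gir and LPS treated Holstein MDMs were apart. Its highest level was 2.16 times its lowest, against 3.30 times for TLR4 and 3.28 times for TLR2.

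TLR2 was placed the other way round from TLR4, with the higher levels in the animals labelled Gir. Unstimulated MDMs of Gir animals 2, 5, 6 and 7 had 584, 1212, 711 and 774 CPM of TLR2, a mean of 820 ± 273 (SD, n = 4), and after LPS they had 998, 1187, 779 and 1024 CPM, a mean of 997 ± 167 (SD, n = 4). Unstimulated MDMs of Holstein animals 1, 20, 3 and 50 had 774, 482, 546 and 370 CPM, a mean of 543 ± 170 (SD, n = 4), and after LPS they had 843, 577, 601 and 620 CPM, a mean of 660 ± 123 (SD, n = 4). Gir 5 had the highest TLR2 level of its breed under both conditions and Holstein 1 that of its own, and Holstein 1 reached into the Gir range each time. The order of the group means was thus Gir LPS, Gir unstimulated, Holstein LPS and Holstein unstimulated for TLR2, while for TLR4 and CD14 it began with Holstein LPS followed by Holstein unstimulated for both genes. Neighbouring groups in these orders overlapped for all 3 genes, as the plot of levels by library shows.

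**Figure D1:**
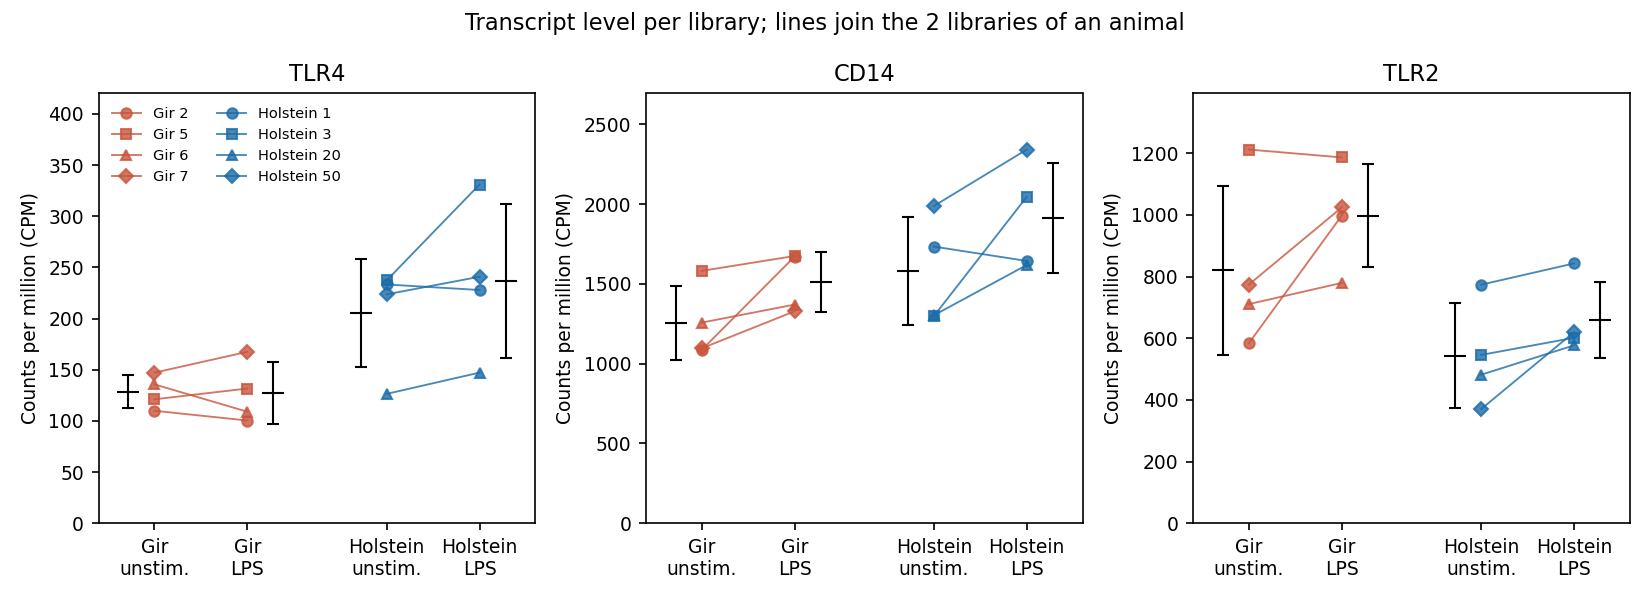
CPM of TLR4, CD14 and TLR2 (vertical axes, each from 0) in every library, by breed and stimulus; lines join the libraries of an animal, and the black marks are group means with SD (n = 4). For TLR4 the Holstein animals other than animal 20 lay above all Gir animals, for TLR2 most Holstein animals lay below the Gir animals, and for CD14 the breeds overlapped under both conditions.

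The breeds were compared within each stimulus by edgeR's quasi-likelihood test over all genes, in which a gene was called at a Benjamini-Hochberg adjusted p under 0.05 with a log2 fold change of at least 1 in either direction. In unstimulated MDMs, 0 of the 3 genes were called, where 0.318% of the 12565 genes tested were. TLR4 was 1.52-fold higher in MDMs labelled Holstein, a log2 difference of 0.61 ± 0.22 (SE; unadjusted p = 0.026, adjusted p = 0.35 by edgeR with Benjamini-Hochberg adjustment). TLR2 was 1.60-fold lower in Holstein, with a log2 difference of -0.68 ± 0.31 (SE; edgeR unadjusted p = 0.058, adjusted p = 0.44), and of -0.416 without Gir 5. For CD14 the log2 difference was 0.26 ± 0.23 (SE; edgeR adjusted p = 0.70), with a 95% interval from -0.27 to 0.78.

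In LPS treated MDMs the differences between the breeds had the same directions, and again 0 of the 3 genes were called, where 7.35% of 11986 genes were. TLR4 was 1.80-fold higher in MDMs labelled Holstein (by exchanged labels it would be higher in Gir by as much), a log2 difference of 0.85 ± 0.25 (SE; edgeR unadjusted p = 0.0073, adjusted p = 0.071). TLR2 was 1.56-fold lower in Holstein, with a log2 difference of -0.64 ± 0.18 (SE; edgeR unadjusted p = 0.0057, adjusted p = 0.060). CD14 differed by 0.31 ± 0.20 on the log2 scale (SE; edgeR adjusted p = 0.45, 95% interval from -0.15 to 0.76). Without Holstein 50 the CD14 difference was 0.132 in unstimulated MDMs and 0.160 after LPS, and in unstimulated MDMs it was 0.158 without Gir 2, 0.170 without Gir 7 and 0.394 without Gir 5. The TLR4 difference was larger in size than that of 84.4% of the genes tested and the TLR2 difference larger than that of 78.1%, whereas that of CD14 was larger than that of 54.5%.

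TLR4 and TLR2 stood close to an adjusted p of 0.05 after LPS, and the side on which they fell changed with the tool, the libraries fitted and the animals kept. With the DESeq2 Wald test the adjusted p was 0.0223 for TLR4 and 0.00715 for TLR2, both under 0.05 together with 12.0% of all genes tested, although the log2 differences of 0.85 and -0.64 stayed below the limit of 1. The 1 edgeR model over all 16 libraries had no term for the animal, so it took the 2 libraries of each animal as independent. In this edgeR model the TLR4 difference after LPS was 0.84 with an adjusted p of 0.0490, where 7.54% of genes were under 0.05. The TLR2 difference there was -0.66 with an adjusted p of 0.131. Without Holstein 20, the animal with TLR4 levels in the Gir range, edgeR gave a TLR4 log2 difference after LPS of 1.01 with an adjusted p of 0.0246, past both limits together with 7.76% of the genes tested. The TLR2 difference after LPS came under 0.05 in edgeR without Gir 6 (adjusted p = 0.0493, with 7.7% of genes) or Holstein 1 (adjusted p = 0.0484, with 7.57% of genes), at -0.73 on the log2 scale each time. Over all alternatives tried, the adjusted p after LPS ranged from 0.0223 to 0.188 for TLR4 and from 0.00715 to 0.144 for TLR2.

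The levels were also compared by exact permutation of the animals over the breeds, two-sided, for which 0.0286 is the smallest p that 4 animals against 4 allow. These tests of log2(CPM + 1) were added after the values had been seen. For TLR4 the exact p was 0.0857 in unstimulated MDMs and 0.0571 after LPS, for TLR2 0.114 and 0.0571, and for CD14 0.171 in both. Of the 3 genes, 0 had CPM values that did not overlap between the breeds in unstimulated MDMs, where 7.78% of genes had none overlapping, and 0 after LPS, where 15.2% had none.

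The response to LPS was first asked within each breed, in the same edgeR test. In Holstein the log2 fold change from unstimulated to LPS treated MDMs was 0.39 ± 0.27 (SE) for TLR4, 0.48 ± 0.23 for CD14 and 0.47 ± 0.25 for TLR2, with edgeR adjusted p of 0.88, 0.78 and 0.83. In Gir it was 0.12 ± 0.19 (SE) for TLR4, 0.40 ± 0.18 for CD14 and 0.41 ± 0.25 for TLR2, with edgeR adjusted p of 0.81, 0.43 and 0.55. The TLR4 value in Gir was 0.040 without Gir 7, 0.078 without Gir 5 and 0.210 without Gir 6. The 3 genes were not called in either breed, and neither was any other gene, the share called being 0.0% of 12400 genes in Holstein and 0.0% of 11913 in Gir. At an unadjusted p under 0.05 edgeR had 841 genes in Holstein and 1393 in Gir. Under the same limits the DESeq2 Wald test called 160 of 13896 genes in Holstein and 352 of 13865 in Gir. With the animal as a block, edgeR called 472 of 12400 genes in Holstein and 26 of 11913 in Gir. None of the 3 genes was among them, which does not set the 3 apart where so few of all genes were called. The counts with the block moved when 1 animal was left out and the filter eased to 3 libraries, to between 8 (without Holstein 20) and 1239 (without Holstein 3) genes in Holstein and between 0 (without Gir 7) and 191 (without Gir 6) in Gir. With the block, the adjusted p in Holstein was 0.077 for TLR4, 0.11 for CD14 and 0.11 for TLR2, and in Gir it was 0.66, 0.23 and 0.24. Without Holstein 3 the adjusted p of TLR2 in Holstein with the block was 0.0378. In that fit 2576 of 12556 genes were under 0.05, against 912 of 12400 with all Holstein animals.

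Over both breeds together, with 8 animals, the log2 fold change with LPS was 0.24 ± 0.17 (SE; edgeR adjusted p = 0.49) for TLR4, 0.42 ± 0.14 (edgeR adjusted p = 0.11) for CD14 and 0.42 ± 0.17 (edgeR adjusted p = 0.19) for TLR2. None of the 3 was called, where 1.63% of 12968 genes were. When each animal was compared with itself, by the animal as a block in the model, the errors shrank and the values moved little. In that fit CD14 was 1.35-fold higher after LPS, a log2 fold change of 0.43 ± 0.10 (SE; edgeR adjusted p = 0.0187), and TLR2 was 1.38-fold higher, with 0.47 ± 0.12 (SE; edgeR adjusted p = 0.0248). TLR4 had a log2 fold change of 0.23 ± 0.08 (SE; edgeR adjusted p = 0.087) with the block. CD14 and TLR2 thus rose with LPS in the paired fit, by less than the limit of 1 on the log2 scale, and they did so with 15.2% of all genes that were under 0.05 there. CD14 stayed under 0.05 when each of the 8 animals was left out in turn, with adjusted p between 0.0152 and 0.04999, the highest without Holstein 20. TLR2 stayed under 0.05 without 5 of the 8 animals and reached up to 0.0616 without Gir 7, Holstein 20 or Holstein 50, and TLR4 came under 0.05 only without Gir 6, with 0.0269. Over all genes, those under 0.05 in these fits numbered from 1104 of 13114 (without Holstein 20) to 2302 of 13204 (without Gir 6). The fit in which TLR4 passed was thus the one in which most genes did. The DESeq2 Wald test without the block gave an adjusted p of 0.0280 for CD14 over both breeds, where 7.43% of genes were under 0.05. Over all alternatives of this comparison the adjusted p ranged from 0.0152 to 0.290 for CD14, from 0.0233 to 0.373 for TLR2 and from 0.0269 to 0.754 for TLR4.

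**Figure D2:**
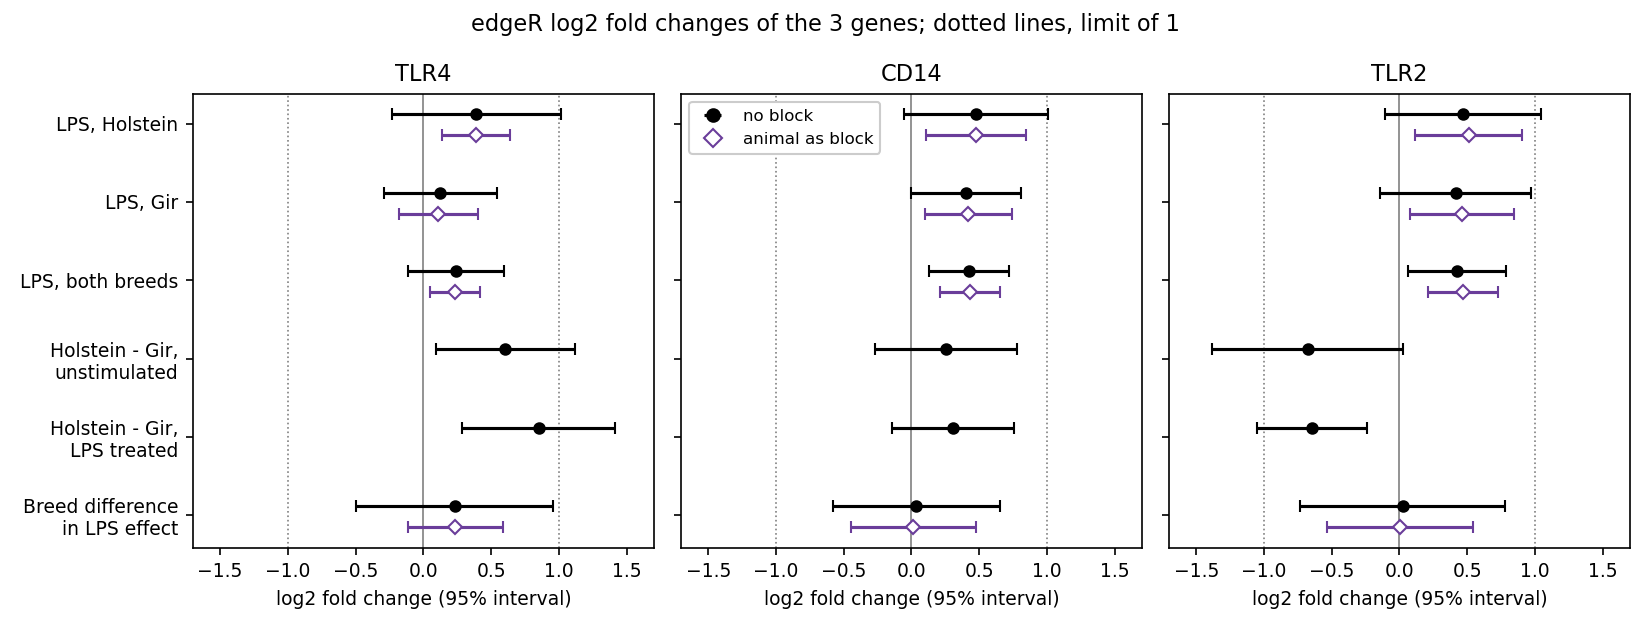
edgeR log2 fold changes (horizontal axis) of the 3 genes with 95% intervals for each comparison, without a block (black circles) and, for comparisons of LPS with unstimulated MDMs, with the animal as a block (open diamonds). The LPS effects of CD14 and TLR2 lay between 0.40 and 0.51, the breed differences were positive for TLR4 and negative for TLR2, and the difference of the LPS effect between the breeds had wide intervals across 0.

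Within animals, the change of log2(CPM + 1) with LPS gave the same order of the genes. CD14 rose by 0.28 ± 0.25 (SD over 8 animals), in 7 of 8 animals, with an exact two-sided sign-flip p of 0.0156. TLR2 rose by 0.32 ± 0.30 (SD over 8 animals), also in 7 of 8 animals, with an exact sign-flip p of 0.0156. TLR4 had a mean change of 0.079 ± 0.24 (SD over 8 animals), higher in 5 of 8 animals, with an exact sign-flip p of 0.398. This TLR4 mean ranged from 0.0218 without Holstein 3 to 0.135 without Gir 6. The smallest p that 8 animals allow in this test is 0.00781, and these p values are not adjusted over the 6 tests of the family. How many of all genes rose in 7 of 8 animals was not counted.

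The animals differed in which receptor moved. Gir 2 had 1.54 times as much CD14 and 1.71 times as much TLR2 after LPS, but 0.913 times as much TLR4. Holstein 3 had 1.58 times as much CD14 and 1.40 times as much TLR4, with 1.10 times as much TLR2. Holstein 50 had 1.67 times as much TLR2, with 1.18 times as much CD14 and 1.08 times as much TLR4. Holstein 1 changed least among the Holstein animals in CD14 and TLR4, at 0.948 and 0.977 times the unstimulated level. By library totals the largest rise was that of Holstein 3 for TLR4 and CD14 and that of Gir 2 for TLR2, and by the TMM scaling described next it was that of Holstein 3 for TLR4, Gir 2 for CD14 and Holstein 50 for TLR2.

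The scale of the libraries bears on these values. The trimmed mean of M-values (TMM) factors, with which edgeR scales the libraries, were lower in the LPS treated library of every animal, by between 0.078 and 0.253 and on average by 0.153 on the log2 scale, which adds this amount to every gene's LPS effect over that by library totals. On the TMM scale, CD14 rose by 0.43 and TLR2 by 0.47 on the log2 scale, each in 8 of 8 animals, both with the smallest exact sign-flip p of 0.00781. CD14 in Holstein 1 went from -0.077 by library totals to 0.030 by TMM. Since TMM lifted every gene here, a rise in 8 of 8 animals need not be particular to these genes, and the number of genes with such a rise was not counted. TLR4 rose by 0.23 on that scale, in 7 of 8 animals (exact sign-flip p = 0.0391), so the call of a TLR4 response depended on the scaling. In Gir alone, the edgeR value of TLR4 turned from 0.12 to -0.015 when the libraries were scaled by their totals.

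**Figure D3:**
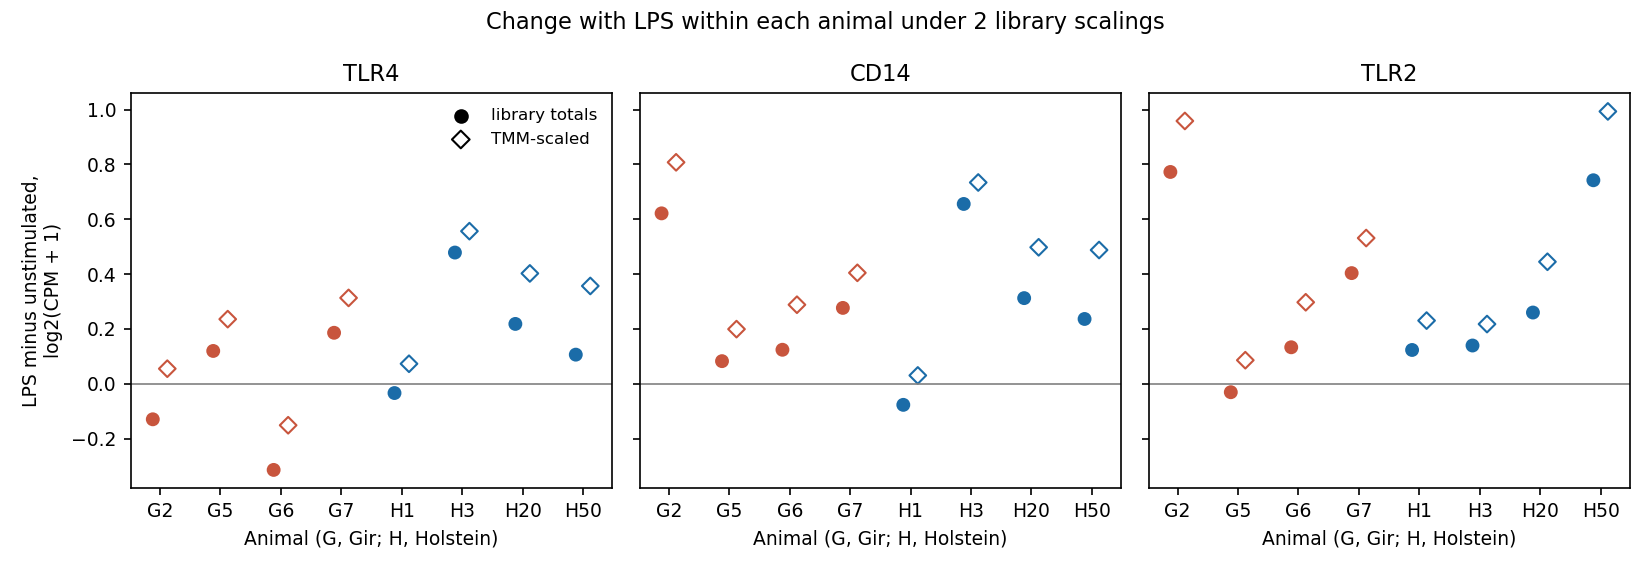
Change with LPS of log2(CPM + 1) in each animal (vertical axis) for the 3 genes, scaled by library totals (filled circles) or by TMM (open diamonds), Gir animals in red and Holstein animals in blue. The TMM values lay above those by library totals in all 8 animals, and 3 animals for TLR4, 1 for CD14 and 1 for TLR2 lay below 0 with library totals.

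The LPS responses of the breeds were set against each other as an interaction term, in edgeR without the animal as a block. Its errors and intervals therefore also hold the differences in level between animals. The response in Holstein minus that in Gir was 0.23 ± 0.34 (SE) for TLR4, with a 95% interval from -0.50 to 0.96, and it was 0.140 without Holstein 3. For CD14 it was 0.04 ± 0.29 (SE), with an interval from -0.58 to 0.65, and for TLR2 it was 0.02 ± 0.35 (SE), with an interval from -0.73 to 0.78. The edgeR adjusted p was 1.00 for each of the 3 genes, and 0.0% of 12968 genes were called. The unadjusted p was under 0.05 for 249 genes by edgeR, the DESeq2 Wald test called 2 genes and edgeR with the block called 0. The exact permutation tests of the within-animal changes gave p = 0.2 for TLR4, 1.0 for CD14 and 0.971 for TLR2, with breed differences of 0.23, 0.006 and -0.003 on the log2 scale, that of TLR4 being 0.131 without Holstein 3 and 0.134 without Gir 6. The intervals, which are those of the fit without the block, leave room for differences in response of either sign for all 3 genes. With the block and 1 animal left out in turn, the difference ranged from 0.166 to 0.304 for TLR4 (edgeR adjusted p from 0.546 to 0.898). It ranged from -0.0839 to 0.126 for CD14 and from -0.170 to 0.149 for TLR2 in those fits.

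The proportion of the receptors to each other was taken as the ratio of their counts within a library, which no scaling of libraries can change. The ratio of 2 genes also holds the ratio of their transcript lengths, so only its differences between libraries can be read. TLR2 had 5.31, 10.0, 5.24 and 5.26 counts per count of TLR4 in unstimulated MDMs of Gir animals 2, 5, 6 and 7, a mean of 6.46 ± 2.37 (SD, n = 4). In unstimulated MDMs of Holstein animals 1, 20, 3 and 50 the ratio was 3.32, 3.81, 2.30 and 1.65, a mean of 2.77 ± 0.97 (SD, n = 4). The breeds did not overlap, since the lowest Gir animal lay above the highest Holstein animal. After LPS the ratio was 9.95, 9.01, 7.15 and 6.12 in the same Gir animals, a mean of 8.06 ± 1.74 (SD, n = 4). In the Holstein animals it was then 3.70, 3.92, 1.82 and 2.57, a mean of 3.00 ± 0.99 (SD, n = 4). Holstein 20, which had the TLR4 level of a Gir animal, had a TLR2 level below all Gir animals, and its ratio stayed on the Holstein side under both conditions.

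On the log2 scale the TLR2 to TLR4 ratio differed, lower in MDMs labelled Holstein, by -1.23 in unstimulated MDMs and by -1.46 after LPS (exact permutation p = 0.0286 for each, the smallest this design allows, unadjusted over 9 tests of ratios). Without Gir 5 the difference in unstimulated MDMs was -1.001, with an exact permutation p of 0.0571 and the breeds still apart. Ratios to TLR4 that did not overlap between the breeds were found for 15.5% of genes in unstimulated MDMs and 26.7% after LPS, so such a division was not rare among genes, above all after LPS. The ratio of CD14 to TLR2 did not overlap either. It ranged from 1.31 to 1.86 in unstimulated MDMs of Gir and from 2.24 to 5.37 in those of Holstein, and from 1.30 to 1.76 and from 1.95 to 3.78 after LPS. The log2 difference of this ratio was 0.92 and 0.93, higher in Holstein (exact permutation p = 0.0286 for each). With 1 Gir animal left out, this ratio still did not overlap between the breeds, although the exact permutation p was 0.0571 in unstimulated MDMs without Gir 5 (0.8291) or Gir 7 (0.868), and after LPS without any 1 of the 4 (0.849 to 0.996 on the log2 scale). Ratios to TLR2 were without overlap for 11.1% of genes in unstimulated MDMs and for 32.6% after LPS. The 2 ratios share TLR2 and are not independent of each other. For CD14 to TLR4 the breeds overlapped, with a log2 difference of -0.31 in unstimulated MDMs (exact permutation p = 0.286; -0.143 without Holstein 3 and -0.172 without Gir 5) and -0.54 after LPS (exact permutation p = 0.143). The overlap after LPS rested on Gir 7, without which the breeds were apart, with a log2 difference of -0.739 (exact permutation p = 0.0571).

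**Figure D4:**
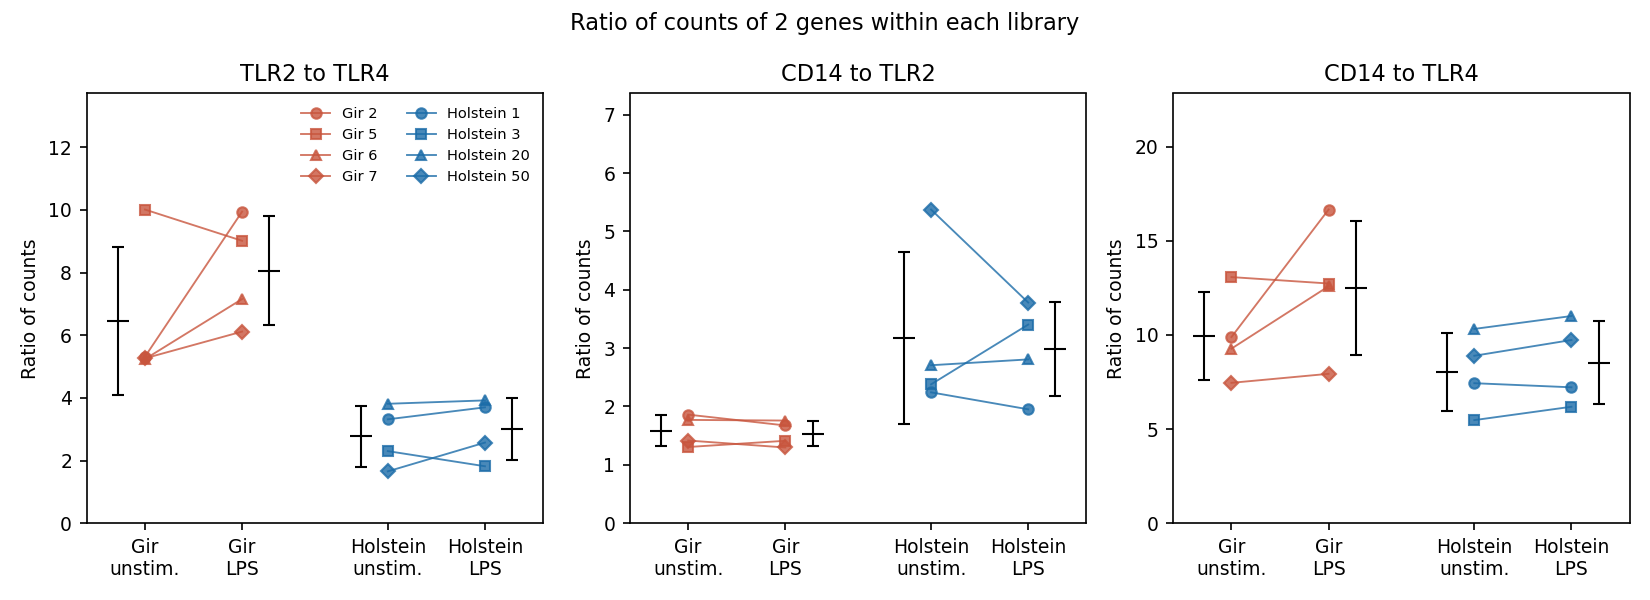
Ratio of the counts of TLR2 to TLR4, CD14 to TLR2 and CD14 to TLR4 in each library (vertical axes, each from 0), by breed and stimulus; lines join the libraries of an animal, and black marks are group means with SD (n = 4). The Gir and Holstein animals were separated for TLR2 to TLR4 and for CD14 to TLR2 under both conditions and overlapped for CD14 to TLR4.

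The change of these proportions with LPS was tested within animals. The CD14 to TLR4 ratio rose by 0.20 on the log2 scale with LPS, in 6 of 8 animals (exact sign-flip p = 0.0312), and it missed 0.05 when any 1 of Gir 2, 6 or 7 or Holstein 3, 20 or 50 was left out, with a mean of 0.121 without Gir 2. The TLR2 to TLR4 ratio had a mean change of 0.24, higher in 6 of 8 animals (exact sign-flip p = 0.148), and of 0.144 without Gir 2. Without Holstein 3 its mean change was 0.322, with an exact sign-flip p of 0.0469. The CD14 to TLR2 ratio had a mean change of -0.039 ± 0.29 (SD over 8 animals; exact sign-flip p = 0.672), higher in 3 of 8 animals.

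The profiles of the 3 genes over the 16 libraries were compared with those of all other genes that passed the filter, by the mean absolute difference of log2 CPM after each gene was centred on its own mean. The gene closest to TLR4 was ENSBTAG00000011600, at 0.159, against a median of 0.549 over 12967 genes. The gene closest to CD14 was ENSBTAG00000001246, at 0.145, against a median of 0.448, and the gene closest to TLR2 was ENSBTAG00000020321, at 0.158, against a median of 0.546. No symbols could be given to them. Among the 3 receptors, CD14 was the 953rd closest gene to TLR4, with a difference of 0.339, whereas TLR2 was at 0.674 from TLR4, farther than the median gene, and CD14 was at 0.477 from TLR2. Ranked from CD14, TLR4 was the 2688th closest gene and TLR2 the 7139th, the latter past the median of 0.448. TLR4 and CD14 were thus nearer to each other over these libraries than either was to TLR2. The median over all genes was lowest for CD14, the gene of the 3 with the narrowest range, so a small difference from it need not mean a like course.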

How the data were processed

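Polyadenylated RNA of MDMs was sequenced (stranded library kit, 100 bp paired-end reads) in 16 libraries, 1 per animal and stimulus. Per the labels' processing notes and the study's methods, the authors checked reads with FastQC, aligned them with STAR 2.6.0c, kept unique alignments and counted them per gene with HTSeq 0.10.0. The notes name the genome build UMD3.1 and the methods ARS-UCD1.2, so no coordinates are printed. The strand setting of HTSeq is not given in the sources used here, and whether counts of the 3 genes include reads of antisense genes was not tested. The deposited values are raw counts per gene, without normalization. The 5 counter lines of each file (18.4 to 23.2% of the sum) were left out of library totals and tests.

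CPM is the count per 1000000 counts on genes. Genes that reached 1 CPM in 4 or more of the libraries fitted were tested with edgeR 4.0.16 (R 4.3.3; TMM scaling, quasi-likelihood test, Benjamini-Hochberg adjustment over all genes), with the libraries of each comparison in the fit. Counts of genes called follow the authors' limits, an adjusted p under 0.05 and a log2 fold change of at least 1 in either direction. Library numbers pair the samples, because the titles give the animal's number and the stimulus, and the 2 libraries of a number came from the blood of 1 animal. Single values were tested by exact sign flips within animals and exact permutation between breeds, two-sided. Ratios were tested as log2 of counts, and CPM with a pseudocount of 1.

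Alternatives were DESeq2 1.42.0, other scalings, no filter, the animal as a block, 1 model over all libraries, other pseudocounts and leaving out each animal, with 1 CPM then asked in 3 libraries, so that these fits changed the filter together with the animals. DESeq2, the block and the 1 model without the limit on the fold change, the block with an animal left out and the permutation of CPM levels were chosen after seeing the data. The members and lists were chosen with earlier results of these data known. The genes named were the 3 members and the gene nearest to each in profile. The planned lists of the LPS pathway and of cell type markers are by symbol, and 0 of 27607 identifiers matched the reference table of 37063 genes (ARS-UCD2.0), so these lists were not used. Replicates are separate animals. The 24 pairs of libraries of a group all differed by more than counting noise, which libraries of separate animals would do in any case, so this shows only that none was a copy of another. The edgeR fits, with and without the block, were run on simulated counts with planted changes larger than those seen here for the 3 genes. Only the recovery of the median planted size was required of them. The exact tests were checked on values with known answers, and DESeq2 and the 1 model were not checked in this way.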

Additional observations from a re-analysis of the deposited data

Results flagged for a closer look

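In 30 groups of 4 values, 3 stood apart from the rest of their group by Dixon's test, taken on CPM, on log2 ratios and on log2 changes, which chance would give in about 1 in 20 groups. TLR4 in unstimulated MDMs of Holstein 20 had 126 CPM, where the other Holstein animals had between 224 and 237. TLR2 in LPS treated MDMs of Holstein 1 had 843 CPM, where the others had between 577 and 620. The ratio of TLR2 to TLR4 in unstimulated MDMs of Gir 5 was 10.0, where the other Gir animals had between 5.24 and 5.31. The scale mattered for a pair of values, in a comparison added after seeing the data. TLR2 of Holstein 1 did not stand apart on the log2 scale (gap over range of 0.811, against 0.839 on CPM), whereas the CD14 to TLR2 ratio of Holstein 50 in unstimulated MDMs, 5.37 where the other Holstein animals had between 2.24 and 2.71, did so on the linear scale only (0.852, against 0.785 on log2). What set these libraries apart was not tested.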

How the results depend on the processing

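Of 348 alternative values of the edgeR comparisons, 336 kept the direction and 314 also their side of the threshold, and so did 80 and 66 of 81 values of the ratios and 56 and 55 of 66 values of the within-animal changes. Under the limit of 1 the edgeR comparisons could hardly change sides, as none of the 18 was called and no alternative exceeded 1.01 in size. The block, DESeq2 and 1 model fits were each counted with and without this limit. With an animal left out, fits were judged with the limit if without the block, and without it if with the block. The 314 is therefore no measure of how firm the results are. Over both breeds CD14 came under an adjusted p of 0.05 with DESeq2 (0.437 on the log2 scale) and with the animal as a block (0.432), and TLR2 with the block (0.470), once no limit on the fold change was set. After LPS the breed difference came under 0.05 likewise for TLR4 with DESeq2 (0.847) and with 1 model over all libraries (0.836), and for TLR2 with DESeq2 (-0.643). The block brought no other of these comparisons past the threshold. TMM scaling brought the within-animal change of TLR4 (0.230) past 0.05 and turned the breed difference of the TLR2 change to 0.0033, and library totals turned the TLR4 response in Gir to -0.0149. The causes were not tested.

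With each animal left out in turn, with and without the block, TLR2 in Holstein ranged from 0.323 to 0.614. Over both breeds the LPS effect ranged from 0.187 to 0.329 for TLR4, from 0.378 to 0.497 for CD14 and from 0.361 to 0.528 for TLR2. The TLR4 difference between the breeds after LPS ranged from 0.661 to 1.01. The interaction ranged from -0.0839 to 0.143 for CD14 and from -0.170 to 0.149 for TLR2, and the breed difference of the within-animal change from -0.119 to 0.125 for CD14 and from -0.145 to 0.148 for TLR2, so these near-zero values had no stable sign. For TLR2 to TLR4 the ratio difference in unstimulated MDMs ranged from -1.41 to -1.001 and its change with LPS from 0.144 to 0.322. For CD14 to TLR2 the ranges were 0.633 to 1.05 in unstimulated MDMs, 0.799 to 1.117 after LPS and -0.119 to 0.0277 for the change with LPS, and for the change of CD14 to TLR4 with LPS they were 0.121 to 0.235.

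Each breed had 4 animals, and each of the 3 genes had at least 820 counts in every library. Symbols could not be checked against the counts. The breed labels do not give the directions between the breeds that the study gives for TLR4 and for the part of its genes matched by identifier. How pure the MDMs were could not be looked at by marker genes other than CD14.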
